A study of Mus musculus with 6 samples.

Results

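The skeletal muscle programme is set by transcription factors of the myogenic bHLH and MEF2 families, and 7 of their genes were followed here: Myod1, Myog, Myf5, Mef2a, Mef2b, Mef2c and Mef2d. The members were all probe sets that the array's annotation gives to a single one of these symbols, 12 probe sets for 7 genes, of 10833 probe sets with a single symbol for 8251 genes. The bHLH genes had 1 probe set each and the MEF2 genes had 9 together. The values were array signals on a linear scale, from total RNA of C2AS12, myoblasts derived from the mouse line C2. All cells had been infected with recombinant adenovirus that carries p300, a histone acetyltransferase and transcriptional coactivator of both families. The virus carried wild-type p300 (without or with doxycycline in the culture) or mutant p300, and each of these treatments was sampled at 0 h, before low-serum differentiation medium was added, and after 24 h in it. Each of these 6 groups had 1 array. The submitters describe survival with wild-type p300 and apoptotic death in both other treatments. Which mutation p300 carried and how doxycycline acts here are not stated in the labels, which also name no uninfected control. The signal of a gene in a culture does not tell fewer expressing cells from less RNA per cell.

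MyoD and Myf5 are the determination factors that commit cells to the muscle lineage, and myogenin drives the later step from myoblast to myotube. They act as dimers with E proteins on the DNA motif CANNTG, the E box, and Id proteins block them by taking up the E proteins. MEF2 proteins have no power to start the programme alone. They bind an AT-rich site, work together with the bHLH factors at muscle genes, and are held in check by class II histone deacetylases and released by kinase signals.

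The arrays had a common scale, with a trimmed mean of 199.9 each and a median signal between 68.7 and 78.0. Of 6 myoblast markers, Des, Cdh15, Chrna1, Itga7 and Ncam1 had signals of 182.8 or more on every array. Vim, which encodes vimentin, was dim, at 26.8 to 56.5, but above the floor of 16.4. The floor is the 25th percentile of all values, and lower signals were raised to it before log2. Probe sets with a mean signal of at least 75.2 were tested, 6212 in all, and a probe set was called at a limma adjusted p under 0.05. Of the 12 member probe sets, 6 passed, 1 for each gene except Mef2c. Where the text gives a change over time, it is the mean log2 difference of 24 h from 0 h over the 3 treatments with its SD.

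Of the 6 members tested over time, 3 rose, Myog, Mef2a and Mef2d, and 0 fell. Over all 6212 probe sets, 7.24% were called higher and 9.00% lower at 24 h. Myog made by far the largest change of the 6. It reached the minimum signal for the test only through the 24 h arrays, so its rise helped it into this count. With the minimum asked at each time Myog was not tested, and Mef2a and Mef2d were still called. Myod1, Myf5 and Mef2b did not pass, and Mef2c was under the floor on every array. All 24 h arrays followed the switch to low serum, so its effect and that of a day in culture cannot be told apart.

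**Figure D1:**
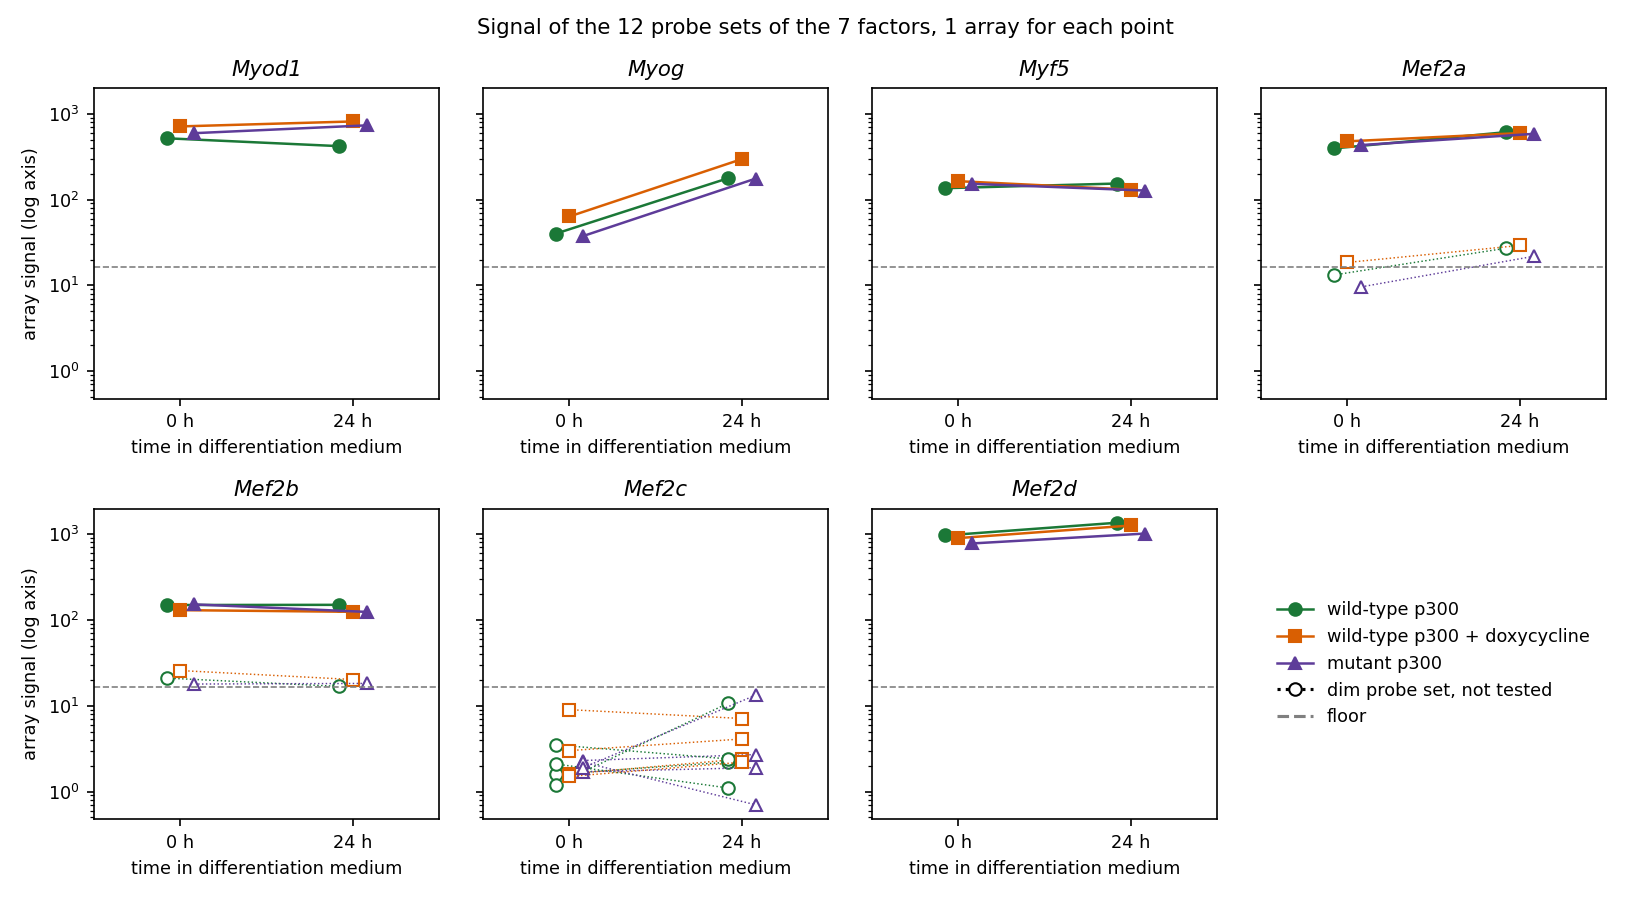
Array signal (log axis) of each of the 7 genes at 0 h and 24 h, with 1 point for each array and a line joining the arrays of a treatment. Filled symbols and solid lines are tested probe sets, open symbols and dotted lines are dim ones, and the dashed line is the floor of 16.4; Myog climbs in all 3 treatments and the 4 probe sets of Mef2c stay under the floor.

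Myog, which encodes myogenin, had a signal of 40 in the wild-type array, 63.5 in the doxycycline array and 37.6 in the mutant array at 0 h. At 24 h its signals were 177.3, 296.4 and 175.7 in the same order. Every array at 24 h lay above every array at 0 h, as was so for 12.7% of all tested probe sets. The ratio of 24 h to 0 h was 4.43 in wild type, 4.67 in doxycycline and 4.67 in mutant. Myog therefore rose by 2.20 ± 0.04 on the log2 scale (SD, n = 3 treatments; limma adjusted p = 1.19e-04). Its mean signal was 47 at 0 h and 216 at 24 h, so Myog reached the minimum of 75.2 for the test only through the 24 h arrays, and the change itself let the gene pass. The adjusted p is to be read with that, beside the 0.0826 found when dim probe sets were kept. The other 5 tested members had a mean above the minimum at both times. Only 3 of the 6212 tested probe sets had a larger mean increase than Myog. The SD over treatments was smaller than for most probe sets: 3.86% of them had an SD as low or lower, and the median SD was 0.20.

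The doxycycline array had the highest Myog signal at both times. It was 1.59-fold that of the wild-type array at 0 h and 1.67-fold at 24 h, and 1.69-fold that of the mutant array at both times. The wild-type and mutant arrays were close, with a log2 difference of 0.09 at 0 h and 0.01 at 24 h. With 1 array for each treatment and time these ratios have no test. Of all tested probe sets, 17.1% were highest with doxycycline at both times.

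The proximal promoter of Myog is shown because the gene made the largest change and because its regulation by the other members runs through this region. It is a 300-base window from RefSeq (build GRCm38.p6, chr1:134289754-134290053, + strand), from 250 bases before the annotated start to 50 after it. The window of Mef2a, a MEF2 gene that rose, is chr7:67372809-67373108 on the - strand. Capitals mark E boxes (CANNTG) and matches to the MEF2 site.
Myog: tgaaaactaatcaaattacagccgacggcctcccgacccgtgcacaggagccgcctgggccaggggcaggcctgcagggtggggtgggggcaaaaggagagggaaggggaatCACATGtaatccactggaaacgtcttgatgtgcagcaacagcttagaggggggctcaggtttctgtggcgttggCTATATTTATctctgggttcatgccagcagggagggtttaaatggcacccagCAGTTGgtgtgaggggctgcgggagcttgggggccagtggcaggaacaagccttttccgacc
Mef2a: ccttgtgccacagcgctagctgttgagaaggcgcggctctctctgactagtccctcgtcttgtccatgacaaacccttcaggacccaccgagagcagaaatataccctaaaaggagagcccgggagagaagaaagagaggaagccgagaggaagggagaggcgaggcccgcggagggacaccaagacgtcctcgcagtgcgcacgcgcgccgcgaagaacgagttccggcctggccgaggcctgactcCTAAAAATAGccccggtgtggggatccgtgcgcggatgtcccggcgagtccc

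The Myog window held 2 E boxes, CACATG from 138 to 133 bases and CAGTTG from 12 to 7 bases upstream of the start. It also held CTATATTTAT, from 64 to 55 bases upstream, which meets the MEF2 consensus except at 1 end base. That looser form, with 1 end base free, was chosen with the described site of this promoter in mind. The Mef2a window held CTAAAAATAG, a full match to the consensus, across the annotated start. Both motifs read the same on both strands, and no marked motifs overlapped. Of 32851 promoter windows of this length in the table, 72.3% held an E box, 3.19% the full MEF2 consensus and 7.66% the looser form. The windows of Mef2d and Myf5 held 0 matches of either motif, and that of Mef2b held 2 E boxes and 0 MEF2 matches. Mef2c had 3 windows for its alternative starts, of which 2 held an E box and 1 the looser MEF2 form. Windows were found for 6 of the 7 members. A match is a description of the letters, and the arrays do not measure binding.

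Myod1, the determination factor, had signals of 517.6, 711.5 and 593.6 at 0 h, in the order wild type, doxycycline and mutant. At 24 h they were 419.1, 813 and 732.1. The wild-type array was the lowest of its time at both times, as for 20.4% of tested probe sets. The ratio of 24 h to 0 h was 0.81 in wild type, 1.14 in doxycycline and 1.23 in mutant, so that the treatments went opposite ways. A lower signal at 24 h with wild-type p300 and a higher one in both others was seen for 10.2% of tested probe sets. The mean change was 0.06 ± 0.32 (SD, n = 3) and did not pass (limma adjusted p = 0.785, 95% interval -0.23 to 0.35). The sign of this mean was not stable: it was between -0.06 and 0.25 when 1 array was left out, and -0.06 with scaling to spike-in controls.

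Myf5, the other determination factor, stayed in a narrow range. Its signals at 0 h were 135.6 in wild type, 163.7 in doxycycline and 152.4 in mutant, and those at 24 h were 153.7, 130.5 and 127.4. The ranges of both times overlapped, and the mean change of -0.13 ± 0.28 did not pass (limma adjusted p = 0.618, interval -0.50 to 0.23). Myf6, which encodes the remaining myogenic bHLH factor MRF4, is no member and was looked up after the other values were known. Its signals were 10.8, 27.1 and 13.3 at 0 h and 40.2, 48.1 and 43.9 at 24 h, too dim for the test.

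Mef2a, a broadly expressed MEF2 gene, had signals of 393.8, 476.8 and 431.5 at 0 h in wild type, doxycycline and mutant. At 24 h they were 610.2, 594.8 and 582.8, and the times did not overlap. The ratios were 1.55, 1.25 and 1.35, and Mef2a rose by 0.46 ± 0.16 on the log2 scale (SD, n = 3; limma adjusted p = 0.0172). Its second probe set, whose name ends in _r_at and marks a relaxed design, was too dim to test. That probe set had 13.2, 18.5 and 9.6 at 0 h and 27.1, 29.2 and 21.8 at 24 h, so its arrays at 24 h were also all above those at 0 h.

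Mef2d, the brightest of the members' probe sets, had signals of 963.8, 898.6 and 778.3 at 0 h and 1356.9, 1260.4 and 1014.4 at 24 h. The ratios were 1.41 in wild type, 1.40 in doxycycline and 1.30 in mutant. Mef2d rose by 0.45 ± 0.06 (SD, n = 3; limma adjusted p = 0.00925), and its arrays at 24 h all lay above those at 0 h. The mutant array had the lowest Mef2d signal at both times. Ordered by signed change from the largest increase down, Mef2a and Mef2d ranked 486th and 499th among 6212 probe sets.

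The calls of the 3 genes that rose depended on the settings to different degrees. When dim probe sets were kept, limma called 0 of 12422 over time (2030 at an unadjusted p under 0.05), with adjusted p = 0.0826 for Myog, 0.177 for Mef2a and 0.0922 for Mef2d. Mef2a also missed the threshold without the mutant array at 0 h (adjusted p = 0.101) or at 24 h (0.104). For Mef2d the same held without the doxycycline array at 0 h (0.0595) or at 24 h (0.0599). Myog stayed called with any 1 array left out (0.00324 at most). Those fits kept the probe sets selected on the full set of arrays, and Myog was among them only through its 24 h signals. Its repeated calls share that selection, and with the minimum signal asked at each time Myog was not tested. Spike-in scaling moved the median change of all tested probe sets to -0.12. Under it Mef2a had 0.34 and Mef2d 0.33, both uncalled, and Myog had 2.08, which was called.

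Mef2b, a MEF2 gene best known from lymphoid cells, had signals of 149.2, 130 and 151.7 at 0 h and 149.9, 124.3 and 124 at 24 h. The times overlapped and the mean change of -0.12 ± 0.16 did not pass (limma adjusted p = 0.647, interval -0.46 to 0.22). Its second probe set was dim on all arrays, between 16.8 and 25.7. Mef2c, a MEF2 gene that rises in differentiating muscle cells, had 4 probe sets, and all of their signals were under the floor. The highest was 13.3, in the mutant array at 24 h, from a probe set that had 10.7 with wild-type p300 and 2.2 with doxycycline at that time. The other 3 probe sets lay between 0.7 and 9. No fold is given for Mef2c, since both times were under the floor. No detection calls were used here, so these signals do not tell absent RNA from probes that do not report it.

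**Figure D2:**
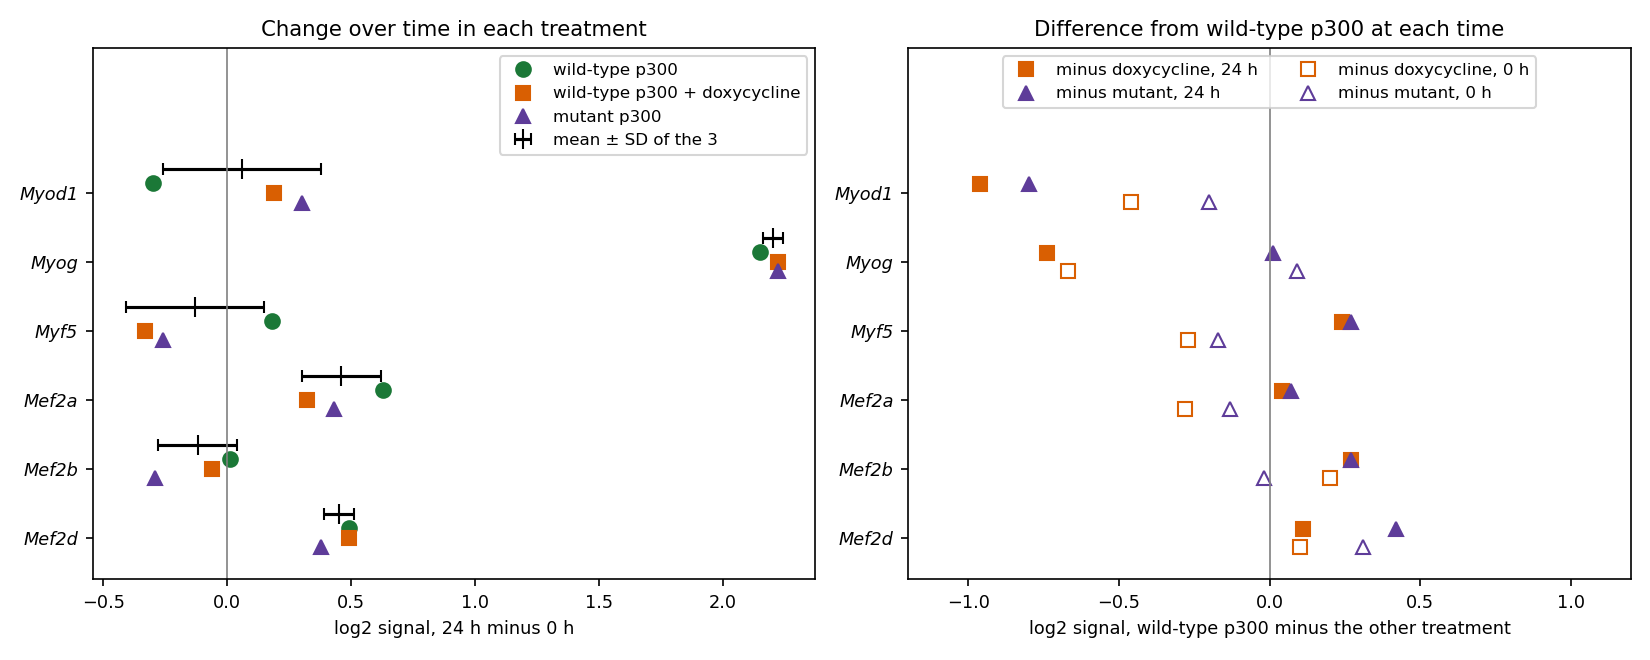
Log2 differences of the 6 tested members. Left, 24 h minus 0 h in each treatment with the mean and SD of the 3; right, wild-type p300 minus each other treatment at 24 h (filled) and at 0 h (open). The 3 symbols of Myog nearly coincide on the left, at 2.15 to 2.22, and Myod1 lies left of 0 in all 4 comparisons on the right.

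Setting wild-type p300 against both other treatments asked whether the factors differed between surviving and dying cells. At 24 h 0 of the 6 tested members passed, where limma called 0.773% of all probe sets, 0.724% as higher with wild-type p300 and 0.0483% as lower. At an unadjusted p under 0.05 these were 367 and 346 probe sets. Only doxycycline and mutant gave a residual, and the single wild-type sample of each time is taken to have the same spread. The differences from doxycycline and from mutant share that array.

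Among the members, Myod1 had the smallest p at 24 h. Its signal of 419.1 in the wild-type array compared with 813 with doxycycline, 1.94-fold more, and 732.1 with mutant p300, 1.75-fold more. The log2 difference was -0.88 with a 95% interval of -1.30 to -0.46 (limma adjusted p = 0.0898), the 83rd smallest p of 6212. It did not pass over all 6 arrays. With 1 doxycycline or mutant array left out the fit has 1 residual degree of freedom, and calls over all probe sets went from 48 to between 161 and 351. In those fits the adjusted p of Myod1 was 0.018 without doxycycline at 0 h, 0.0167 without mutant at 0 h, 0.0248 without doxycycline at 24 h and 0.00394 without mutant at 24 h. Without a 24 h array the comparison is 1 array against 1, with the spread taken from 0 h alone. In the 24 h arrays alone, with 155 calls, it was 0.0145, and over all 13 alternatives it ran from 0.00394 to 0.323. The wild-type signal was below both others at 24 h for 39.6% of tested probe sets, and at 0 h for 37.0%. At 0 h the Myod1 difference was -0.33 (adjusted p = 0.999), and the interaction, the difference at 24 h less that at 0 h, was -0.55 (interval -1.15 to 0.05, adjusted p = 1).

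The other members lay closer together at 24 h. Mef2a differed by 0.05 (interval -0.34 to 0.45), its 3 signals within 582.8 to 610.2. Myf5 differed by 0.25 (interval -0.31 to 0.82), Mef2b by 0.27 (interval -0.32 to 0.86) and Mef2d by 0.26 (interval -0.17 to 0.70), each with the wild-type array highest, as for 28.4% of tested probe sets. Adjusted p for these 4 genes was between 0.679 and 0.953. Myog had a difference of -0.36 (interval -1.36 to 0.64, adjusted p = 0.823), but this average hid unequal parts, -0.74 against doxycycline and 0.01 against mutant.

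At 0 h the members' differences were between -0.33 for Myod1 and 0.20 for Mef2d, and 0 of 6 passed (limma adjusted p = 0.999 for each). Over all 6212 probe sets 0.00% were called at 0 h, with 262 at an unadjusted p under 0.05, and 0.00% for the interaction, with 197. The interaction of Myog was -0.08 (interval -1.49 to 1.34), that of Mef2a 0.26, that of Mef2d 0.06, that of Mef2b 0.18 and that of Myf5 0.47, with adjusted p = 1 in limma for each. That fit does not pair the arrays of a treatment. With treatment as a block, added after seeing the data and with 1 residual degree of freedom, limma called 53 probe sets (553 at an unadjusted p under 0.05) and 0 of the 6 members. The interval for Myod1 was then -0.97 to -0.14 (adjusted p = 0.316) and that for Myog -0.99 to 0.83 (adjusted p = 0.991).

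Technical measures moved with the treatments at 24 h. The 9 spike-in controls lay at -0.18 in the wild-type array, 0.13 in the doxycycline array and 0.23 in the mutant array (mean log2 distance from their average over the 6 arrays). The ratio of 3' to 5' signal of actin, a sign of RNA quality, was 1.33 against 1.45 and 1.49. With spike-in scaling the median difference of all probe sets at 24 h became 0.32, and that of Myod1 -0.52 (limma adjusted p = 0.169). The part of RNA quality in these differences was not tested.

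Doxycycline and mutant p300, both with dying cells, were compared by values alone. At 24 h the log2 difference of doxycycline from mutant was 0.75 for Myog, 0.31 for Mef2d and 0.15 for Myod1. For Mef2a it was 0.03 and for Myf5 0.03, and Mef2b read 124.3 and 124. The median absolute difference of all tested probe sets between these arrays was 0.23, and 11.3% were at least 1.5-fold apart, Myog among them.

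Genes that act with or under these factors were taken from 9 lists. Of 75 tested genes in them, 25 rose and 7 fell over time by limma, against 370 and 450 of 4822 tested genes overall. The lists were chosen with earlier results of these data known, so these counts are descriptive and give no independent support. Among the 25, Chrnd, Dll1, Ryr1, Sgca, Tnnc1 and Tnnt1 reached the minimum signal only through the 24 h arrays, so their rise helped them pass. With the minimum asked of the mean at each time, 19 of 70 list genes rose and 7 fell, beside 413 and 484 of 5920 probe sets. Counted as genes in the main fit, 351 rose and 394 fell of the 4613 above the minimum at both times. The count of 32 fell to 19 without the mutant array at 0 h, to 16 without the mutant array at 24 h, to 18 with spike-in scaling and to 0 without the filter. Between wild type and the other treatments 0 of the 75 passed at 24 h, at 0 h or in the interaction, without or with treatment as a block.

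**Figure D3:**
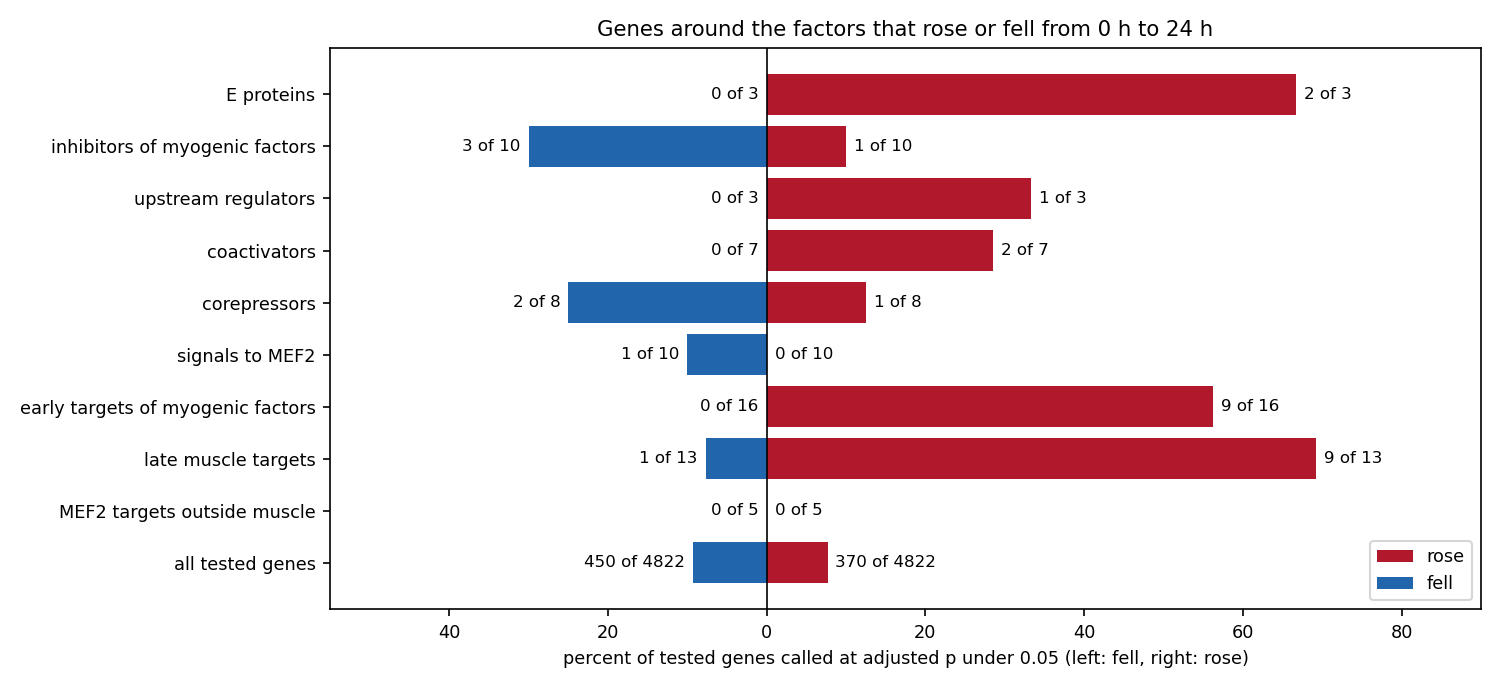
Percent of the tested genes of each list that rose (right) or fell (left) over time at a limma adjusted p under 0.05, with the counts beside each bar. The bars of early targets (9 of 16 rose) and late muscle targets (9 of 13) are longer than that of all tested genes (370 of 4822). Of those that rose, 2 of the early and 4 of the late targets were tested only through their 24 h signals. The lists were chosen with earlier results of these data known.

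E proteins are the dimer partners of MyoD, myogenin and Myf5. Of the 3 tested, Tcf4 rose by 0.93 ± 0.11 and Tcf12 by 0.43 ± 0.07 (SD, n = 3; limma adjusted p = 3.35e-04 and 0.0121). Tcf3, which encodes E12 and E47, was at 0.04 ± 0.18 and did not pass. Inhibitors of the myogenic factors had a median change of 0.02, and of the 10 tested, 1 rose and 3 fell. Those were genes of Id proteins: Id2 fell by 1.76, Id1 fell by 1.21 and Id3 fell by 0.84 on the log2 scale. Id2 went from signals of 531.2, 877.6 and 580.6 to 181.2, 177.3 and 217. Zeb1, a repressor that binds E boxes, rose by 0.61 ± 0.16 (limma adjusted p = 0.00467).

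Upstream regulators turn the bHLH genes on. Of 3 tested, Six4, a homeobox factor that acts on Myog, rose by 0.92 ± 0.21 (limma adjusted p = 0.00217). Its second tested probe set was not called, with a change of 0.40 (adjusted p = 0.422). Of 7 coactivators, 2 rose and 0 fell: Crebbp, the paralog of p300, by 0.59 ± 0.19 and Kat2b, the acetyltransferase PCAF, by 0.52 ± 0.10. Of 8 corepressors, 1 rose and 2 fell. Hdac5, a class II deacetylase that binds MEF2, rose by 0.65 ± 0.37 (adjusted p = 0.0149). Ezh2, a histone methyltransferase of Polycomb, fell from 187.5, 240.9 and 271.7 to 109.1, 124.9 and 112.4 (adjusted p = 0.00303). The deacetylase gene Hdac3 fell by 0.45 ± 0.28 (adjusted p = 0.0472). Of 10 genes that signal to MEF2, 1 fell, the p38 gamma kinase gene Mapk12, by 0.47 ± 0.06 (adjusted p = 0.0408). Of all tested genes 7.67% rose and 9.33% fell, so this count of 1 in 10 lies near the share of all genes. The lists in this paragraph are small, and their counts were not tested against that share.

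Of early targets of the myogenic factors, 9 of 16 tested genes rose and 0 fell, with a median change of 0.56 against 0.01 for all tested genes. Of the 9, Chrnd and Dll1 reached the minimum signal only through the 24 h arrays. Among the 14 genes above it at both times 7 rose, with a median of 0.49. The largest changes were those of Gadd45a at 1.22 ± 0.28, the Notch ligand gene Dll1 at 1.18 ± 0.17, and the acetylcholine receptor subunit genes Chrng at 1.03 ± 0.21 and Chrnd at 0.93 ± 0.26. A second probe set of Chrng rose as well, by 1.38. Of the myoblast markers, which partly lie in this list, 3 of 5 tested rose: Chrna1 by 0.89, Itga7 by 0.50 and Des by 0.46. Itga7 was not called by its second tested probe set, at 0.34 (adjusted p = 0.187).

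Late muscle targets are genes of the contractile apparatus, calcium handling and muscle metabolism. Of the 33 on the array only 13 were bright enough to be tested, and 9 of these rose, with a median of 0.89. A rise could itself decide that: Ryr1, Sgca, Tnnc1 and Tnnt1, all of which rose, reached the minimum only through the 24 h arrays. Among the 9 genes above it at both times 5 rose and 1 fell, with a median of 0.64. Over all 33, with 6 under the floor on every array, the median change was 0.17, against 0.00 for 8251 genes. Tnnt1, slow troponin T, rose by 2.70 ± 0.43, though a second tested probe set of it had 0.25 (adjusted p = 0.442). Myl1, which encodes an alkali light chain of fast myosin, rose by 2.68 ± 0.50, from 210, 445.5 and 177.4 to 1093.5, 2374.4 and 1697.8. The calcium release channel gene Ryr1 rose by 1.91 ± 0.31 and skeletal actin, Acta1, by 1.15 ± 0.36. Eno3, muscle enolase, named here after its value was seen, fell by 0.72 on the log2 scale. Of these 13 genes, 8 had their highest signal with doxycycline at both times, as Myog did, beside 17.1% of all tested probe sets. The minimum was asked of the mean over all 6 arrays, so high doxycycline signals could help genes such as Ryr1 and Tnnc1 pass. This count was not tested. Of 5 tested MEF2 targets outside muscle, 0 rose and 0 fell.

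Genes with a signal pattern most like that of a member were found by the root mean square difference between log2 signals, each gene centred on its mean over the 6 arrays, among 4821 other genes. For Myog they were Ryr1 at 0.20, Adh1, an alcohol dehydrogenase, at 0.34 and Myl1 at 0.35, where the median over all genes was 1.16. Ryr1 had 33.7, 53.9 and 29.4 at 0 h and 99.2, 228 and 125.4 at 24 h, with the doxycycline array on top at both times. For Mef2a they were Rab5a and Rab9, small GTPases of endosomal traffic, and Krt10, a keratin, all at 0.06 beside a median of 0.31. For Mef2d they were Ppp4r2, a phosphatase subunit, at 0.05, Myo10, an unconventional myosin, at 0.06 and Parp8 at 0.07, beside a median of 0.34. With quantile normalization 4 of these 9 genes were again among the nearest.

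**Figure D4:**
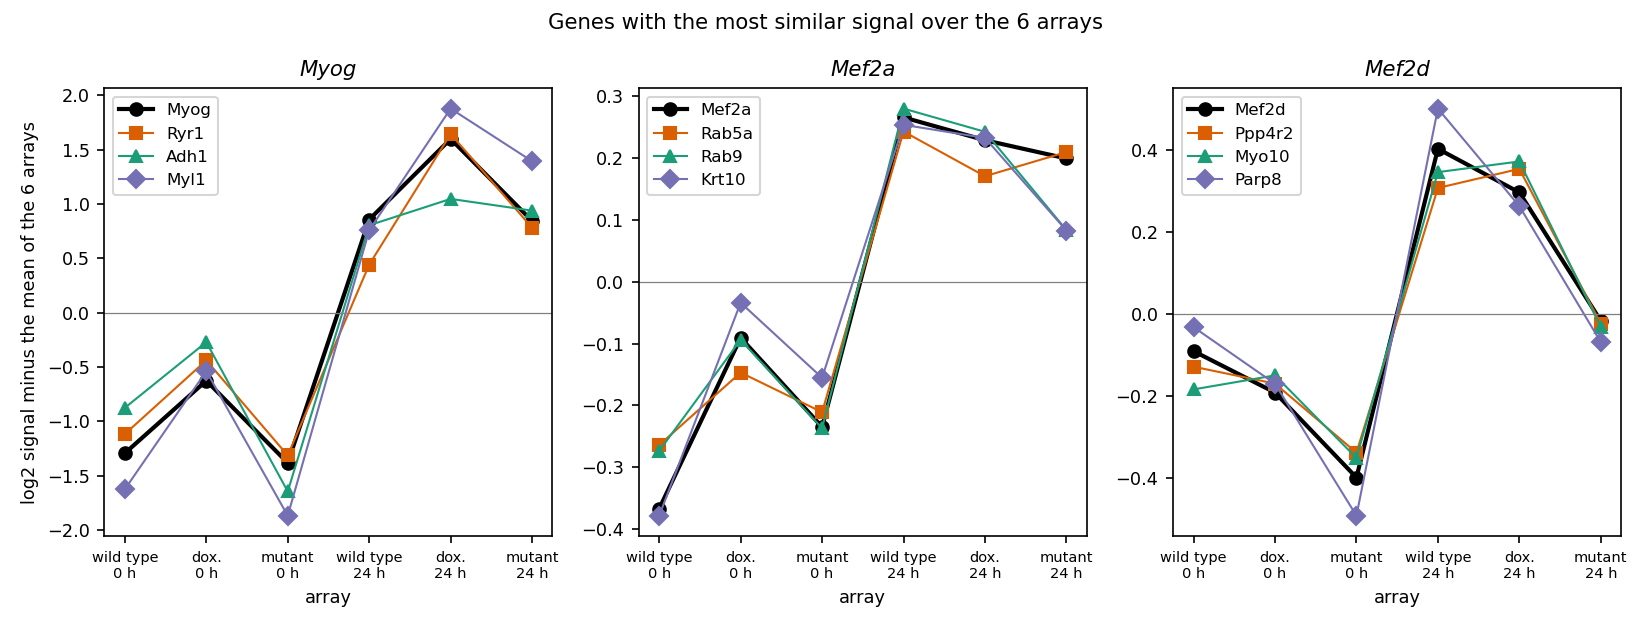
Log2 signal minus the mean of the 6 arrays for Myog, Mef2a and Mef2d (black) and the 3 genes most like each, by array; the lines only guide the eye between arrays. The vertical axes differ: Myog and its neighbours span over 2 log2 units, Mef2a and Mef2d under 1.

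Markers of other cell types, in which MEF2 or bHLH factors also act or into which C2-derived cells could turn, were mostly dim. Of adipocyte, bone and cartilage, lymphocyte and endothelium markers, 0 were bright enough to be tested. The 5 endothelium markers summed to 67.6 to 133.1 at 0 h and 78.9 to 230.8 at 24 h. Wild-type p300 gave the 230.8, of which Tek made up 116.3. Tek read 2.8 to 19.5 on all remaining arrays, and its difference was not tested. The summed signal of 5 heart markers was 298.7 to 418.3 at 0 h and 345.1 to 448.5 at 24 h, with Myh6 and Nkx2-5 under the floor on all arrays. Gata4, Nppa and Nppb were tested, at 112.7 to 200.7, 100.7 to 162.4 and 40.7 to 196.2. Of these 3, 0 were called over time or between wild type and the other treatments. Nppb had 111.6 at 0 h and 196.2 at 24 h with wild-type p300, and 40.7 to 55.3 in the other arrays. The summed signal of 5 macrophage markers was 208.9 to 267.9 at 0 h and 172.7 to 190.6 at 24 h, with Adgre1, Itgam and Lyz2 under the floor. Among them only Cd68 was tested, at 103.9 to 173, and it was not called over time. Of 3 tested smooth muscle markers 1 rose, Acta2, by 0.68 ± 0.25 (limma adjusted p = 0.0055). Tagln was at 0.03 (adjusted p = 0.919) and Smtn at -0.31 (adjusted p = 0.467), and Cnn1 and Myh11 were under the floor on all arrays. The summed signal of the 5 was 2187.5 to 2782.5 at 0 h and 2900.7 to 4223.6 at 24 h, most of it Acta2, which ranged from 1760.5 to 3753.2. Among neuron markers Tubb3 was bright, at 613.7 to 1410.6, and fell by 0.94 on the log2 scale, and Snap25 was under the floor. A second Tubb3 probe set, too dim for the test, lay at 38.1 to 65.1 with a change of 0.16. The part of these cell types in the members' changes was not tested.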

How the data were processed

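Total RNA of 6 samples was hybridised by the submitters to oligonucleotide arrays. The deposited values are array signal intensity on a linear scale, made by the authors with MAS5, per the submitters' processing notes. Its version is not stated there. The table held 12488 probe sets, of which 66 controls were left out. Gene symbols came from the platform annotation provided, updated to GRCm38.p6 names. Of 12422 probe sets, 10833 had 1 symbol, 396 several and 1193 none. Signals were raised to a floor of 16.4, log2 was taken, and probe sets with a mean of at least 75.2 were tested. Where a gene of a list had several, the brightest stood for it.

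limma 3.58.1 in R 4.3.3 (lmFit, eBayes with a variance trend, 2-sided, Benjamini-Hochberg over all 6212) was used. Time was fitted with treatment as a block (2 residual degrees of freedom). For the outcomes, wild type and the pair of other treatments had their own mean at each time (2 residual degrees of freedom). The time fit, the 24 h difference and the interaction with treatment as a block were tested on simulated data. Of 100 probe sets given a log2 change of 1, these recovered 100, 86 and 30, in that order. With a log2 change of 2 each recovered 100. False calls were 10, 3 and 10. The simulated noise had the same SD for every probe set and array, so these counts do not give the power in the real arrays. The 0 h difference and the interaction without a block were not tested in this way.

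Named are all members, up to 4 called genes of each list by size of change, and the 3 genes most like each called member. The members and lists were chosen with earlier results of these data known. Labels name no separate cultures of a group, so p-values measure the spread between these samples only. Alternatives were filters, floors, scalings, the trend, the block and leaving out arrays.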

Additional observations from a re-analysis of the deposited data

Results flagged for a closer look

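In 3 members the wild-type array changed one way over time and both other treatments the opposite way, as for 17.7% of all tested probe sets. In Myod1 the wild-type signal was 517.6 at 0 h and 419.1 at 24 h, against 711.5 and 813 for doxycycline and 593.6 and 732.1 for mutant, an interaction of -0.55 on the log2 scale. Myf5 went the other way, from 135.6 to 153.7 against 163.7 to 130.5 and 152.4 to 127.4, an interaction of 0.47. Mef2b went from 149.2 to 149.9 against 130 to 124.3 and 151.7 to 124, an interaction of 0.18. The test of this difference in limma, which does not pair the arrays of a treatment, gave adjusted p = 1 for each of the 3 genes. With treatment as a block it gave 0.316 for Myod1, 0.822 for Myf5 and 0.97 for Mef2b, and did not call them either.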

How the results depend on the processing

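Precision is limited by 1 array for each treatment and time, and by dim signal for Mef2c and for most late muscle targets. The causes of the shifts below were not tested, except that leaving out an array leaves fewer samples. Over time, 1009 probe sets were called (450 higher, 559 lower). Without the filter 0 were called, with spike-in scaling 620 (141 higher, 479 lower), and with 1 array left out 479 to 1283. With no replicate block, that is without treatment as a term, there were 514 (205 higher, 309 lower) and Mef2d was not called (adjusted p = 0.0841); no paired analysis by replicate number was possible because the labels give none. Without the variance trend Mef2a had adjusted p = 0.0586. The wild-type difference at 24 h held 48 calls, 192 without the filter, 419 with spike-in scaling (414 higher, 5 lower), 11 without the variance trend, 155 in the 24 h arrays alone and 161 to 351 with 1 array left out. At 0 h it held 0 calls, 126 without the filter, 5 with spike-in scaling and 18 to 38 with 1 array left out. For the interaction these counts were 0, 245, 1 and 6 to 43, and with treatment as replicate block 53 (37 higher, 16 lower). That block, and a minimum of 75.2 for the mean at each time, were added after seeing the data. The latter left out Myog and gave 897 calls over time and 26 in the pathway lists, with Mef2a and Mef2d still called. Pathway lists held 32 called genes, 0 without the filter, 18 with spike-in scaling, 20 with no replicate block and 16 to 35 with 1 array left out. Between doxycycline and mutant at 24 h 141 probe sets were at least 2-fold apart, 701 without the filter, 50 with a stricter filter and 76 with log2(value + 20). The wild-type array was at least 2-fold from both others in 105, in 315 without the filter, 56 with the stricter filter and 224 with spike-in scaling. Of the 9 genes most like a member, quantile normalization kept 4.

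Directions of uncalled member values turned in places. With spike-in scaling Myod1 had a time change of -0.06, and Myog 0.00087 for the wild-type difference at 24 h and 0.34 for the interaction. With quantile normalization the interaction of Mef2d was -0.0031. With 1 array left out, the time change of Myod1 was -0.06 to 0.25, the differences of Myog -0.74 to 0.01 at 24 h and -0.67 to 0.09 at 0 h, its interaction -0.45 to 0.30, that of Mef2d -0.10 to 0.21, and the 0 h difference of Mef2b -0.02 to 0.20. The called changes of Myog, Mef2a and Mef2d kept their direction under every alternative that tested them (the stricter filter and the one at each time left out Myog), at 1.80 to 2.22, 0.34 to 0.53 and 0.33 to 0.49.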
